A study of Mus musculus with 32 samples.

Results

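The AP-1 factors were followed here as 7 genes: Fos, Fosb and Fosl2 of the Fos family, Jun, Junb and Jund of the Jun family, and Atf3, a related factor that can pair with Jun proteins. They were taken by name from a table of 54146 gene identifiers, and all 7 were found once and passed the filter on low counts in both regions, among 18261 genes tested in hippocampus and 18256 in striatum. The libraries came from single hemispheres of hippocampus or striatum of male C57BL/6J mice aged 12 weeks, taken 1 hour after behaviour. Each mouse was injected intraperitoneally 1 hour before behaviour with 30 mg/kg of CI-994, which inhibits histone deacetylases of class I (called HDACi), or with the DMSO, Kolliphor and saline solvent (vehicle). In contextual fear conditioning (CFC) mice received 2 foot shocks, each of 0.2 mA, inside a conditioning chamber, and context mice spent equal time there unshocked. Region, drug and behaviour give 8 groups, each of 4 libraries from 4 mice, 32 libraries in all. Every group, vehicle context included, was injected and placed in the chamber, and the series holds no group left in the home cage. Cage mates shared their behaviour, which therefore cannot be told apart from cage, and the labels do not tie a hippocampus library to a striatum library of the same mouse. The tests between regions treat all 32 libraries as independent. If both regions came from the same mice, the p values of those tests do not account for it.

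AP-1 is a dimer of leucine-zipper proteins that binds DNA at short palindromic elements, and Fos proteins do so mainly as partners of Jun proteins. Fos, Fosb and Junb are among the immediate early genes, whose transcripts appear within minutes of calcium entry or growth factor signalling and decay quickly. Fos RNA is widely used as a marker of recently active neurons. Jun and Jund are present at rest, Fosl2 (Fra-2) follows stimulation more slowly, and Atf3 is induced by cell stress and by strong neuronal activity.

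The windows of 250 bases that lie before 4 of the annotated starts are shown. Fos, Fosb and Junb are classic activity-dependent members, and Jun is the member that changed most clearly with the drug. The sequences are RefSeq's, on build GRCm38.p6, written 5′ to 3′ on the strand of the gene, and position -1 is the last base before the start. Capitals mark TGACG, the core of the cAMP response element, the Jun-type element TGACATCA, the MEF2 site and the TATA box TATAAA.

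Fos, chr12:85473640-85473889, plus strand: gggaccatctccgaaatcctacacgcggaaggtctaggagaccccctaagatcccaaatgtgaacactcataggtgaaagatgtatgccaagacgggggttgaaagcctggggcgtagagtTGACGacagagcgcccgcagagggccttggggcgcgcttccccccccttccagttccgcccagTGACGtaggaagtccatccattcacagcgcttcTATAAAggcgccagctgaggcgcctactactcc

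Fosb, chr7:19310046-19310295, minus strand: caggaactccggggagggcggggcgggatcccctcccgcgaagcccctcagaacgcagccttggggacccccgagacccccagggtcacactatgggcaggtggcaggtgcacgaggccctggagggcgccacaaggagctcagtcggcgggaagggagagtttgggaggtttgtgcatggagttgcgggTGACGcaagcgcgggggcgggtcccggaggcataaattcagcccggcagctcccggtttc

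Junb, chr8:84978749-84978998, minus strand: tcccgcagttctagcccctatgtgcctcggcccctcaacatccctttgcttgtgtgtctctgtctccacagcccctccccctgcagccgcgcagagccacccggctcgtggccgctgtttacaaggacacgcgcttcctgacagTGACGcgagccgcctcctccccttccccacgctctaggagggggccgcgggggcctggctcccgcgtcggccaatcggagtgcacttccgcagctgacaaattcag

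Jun, chr4:95052223-95052472, minus strand: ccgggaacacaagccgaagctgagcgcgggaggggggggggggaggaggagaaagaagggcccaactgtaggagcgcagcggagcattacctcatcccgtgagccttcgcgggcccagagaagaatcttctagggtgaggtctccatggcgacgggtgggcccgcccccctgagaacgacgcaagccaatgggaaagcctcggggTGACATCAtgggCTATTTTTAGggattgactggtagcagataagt

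TGACG stood at -129 and -66 in Fos, at -60 in Fosb and at -106 in Junb, and it was present on either strand in 17.8% of 32851 promoter windows of the same length. Jun had no TGACG. It held TGACATCA from -45 to -38, an element present in 2.93% of windows, and the MEF2 site from -33 to -24, present in 0.508%. The window of Atf3, not printed, also held a MEF2 site (-22 to -13) and a TGACG (-7 to -3, on the other strand). TATAAA stood at -33 in Fos and occurred in 12.4% of windows. The full elements TGACGTCA (1.55% of windows) and TGACTCA (4.46%) and the CArG box bound by SRF (1.47%) were found in none of the 7 members' windows, which says only that these letters are not within 250 bases of the RefSeq start. The Jund window ended at 70697738, and GENCODE starts that gene at 70698949. The windows of Fosl2 and Atf3 lay inside the GENCODE genes. For these members the window may not be that of the transcripts counted. All motif matches are descriptions of sequence, and no binding was measured.

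Hippocampus libraries held 26026024 to 36670767 counts and striatum libraries 27418127 to 33635025. The labelled regions held markers of their defining neurons. Over 9 markers, those of hippocampal neurons averaged 6.04 to 6.59 log2 CPM (CPM being the count scaled to its library's total) in the hippocampus libraries. Over the 8 of them tested in striatum the average there was 2.42 to 3.72. In vehicle context mice 8 of the 9 were called higher in hippocampus and 1 was called higher in striatum. The 8 markers of medium spiny neurons averaged 8.63 to 9.43 in striatum and 2.35 to 2.83 in hippocampus. A pair of hippocampus libraries stood apart, HDACi CFC replicates 2 and 4, in which 8 choroid plexus markers averaged 6.66 and 6.65 log2 CPM, against at most 3.21 in any other library of the region. In striatum, vehicle CFC replicate 3 and HDACi CFC replicate 2 had the lowest averages of the medium spiny neuron markers, 8.69 and 8.63, against at least 8.97 elsewhere. In these bulk samples fewer cells of a type and less RNA per cell cannot be told apart.

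Per kilobase of exon, a scale for ranking different genes that depends on the length used, Jun was the most abundant member in hippocampus and Atf3 the least abundant in both regions. Length here was that of all annotated exons merged, 9680 bases for Fosl2 and 6243 for Fosb. Their longest transcripts have 6537 and 3782 bases. For Jun and Jund the lengths are the same either way, so Fosl2 and Fosb would stand higher beside them by transcript length. The median over the 16 hippocampus libraries was 22.1 CPM per kilobase for Jun, 7.52 for Fosl2, 4.57 for Jund, 4.44 for Fos, 1.5 for Fosb, 1.5 for Junb and 0.673 for Atf3. In striatum the order was Jund with 5.72, Fosl2 with 4.90, Fos with 3.53, Jun with 3.44, Fosb with 2.40, Junb with 2.22 and Atf3 with 0.406. Neighbours in these orders overlapped in their ranges with 3 exceptions. In hippocampus the lowest Jun library (13.3) was above the highest Fosl2 library (9.19) and the lowest Fos library (3.18) above the highest Fosb library (2.45), and in striatum the lowest Junb library (1.02) was above the highest Atf3 library (0.802). The places of Fosl2 and Fosb in the orders, and the separation of Fos from Fosb, depend on the merged lengths. Atf3 rested on 12 to 85 counts per library, so its values carry the most counting error of the 7.

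**Figure D1:**
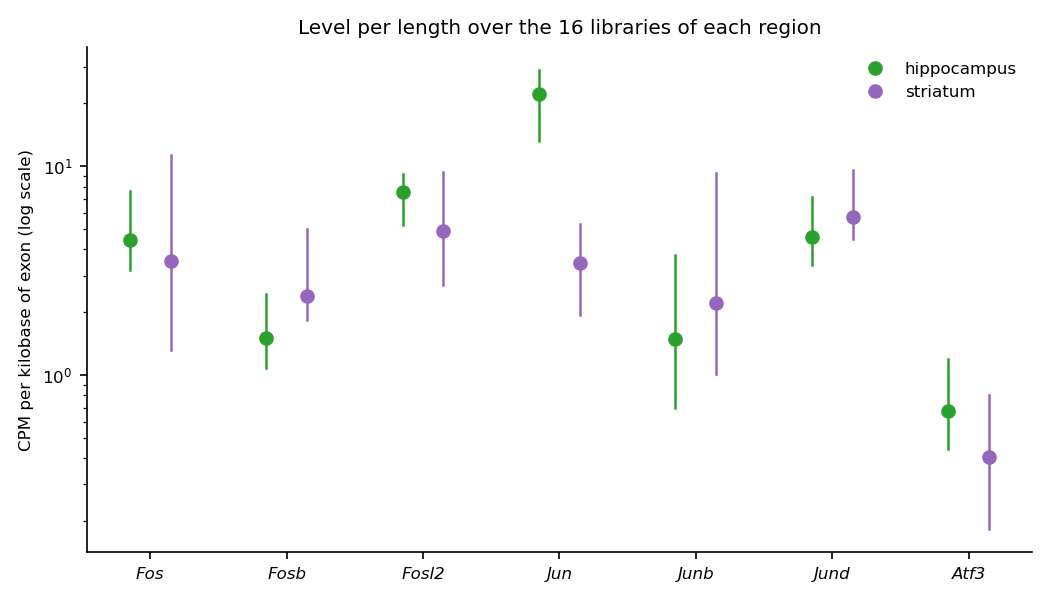
Level of each AP-1 gene in CPM per kilobase of exon, on a log axis. Points are the median and lines the lowest to highest value over the 16 libraries of hippocampus or striatum. Jun lies at 22.1 in hippocampus and 3.44 in striatum, a wider gap than for the other 6 genes.

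The 2 regions differed most in Jun. In vehicle context mice Jun averaged 53.0 ± 11.7 CPM in hippocampus and 11.9 ± 1.13 in striatum (SD, n = 4 each), 4.36-fold apart (log2 difference 2.12, SE 0.17, adjusted p = 8.23e-12 by edgeR's quasi-likelihood test, which is the test behind every adjusted p of a fold change below). Atf3 was also higher in hippocampus, 1.35 ± 0.453 against 0.689 ± 0.172 CPM (log2 difference 0.94, SE 0.30, adjusted p = 0.0125). Fosb was lower in hippocampus, 9.72 ± 2.64 against 18.8 ± 7.30 CPM (log2 difference -0.97, SE 0.26, adjusted p = 0.0027). These are 3 of the 7 members, where 44.1% of 19198 genes differed between the regions. Fos (log2 difference -0.08), Fosl2 (0.20), Junb (-0.79) and Jund (-0.38) did not pass. Without hippocampus vehicle context replicate 1, the library highest for every member, the Atf3 difference was no longer called (adjusted p up to 0.0809 over the 8 libraries left out in turn), while those of Junb (adjusted p = 0.0450) and Jund (adjusted p = 0.0226) became called. The Atf3 call was also lost with only replicates 1 and 2 or only 3 and 4 (adjusted p = 0.0100 to 0.192 over 10 alternatives). With only replicates 1 and 2 another of the 3 calls was lost as well, leaving 1 member called. Jund was also called with GC and length offsets (log2 -0.28, adjusted p = 0.0233).

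Jun, the principal partner of Fos proteins, rose with HDACi in the hippocampus after either behaviour. The 4 vehicle CFC mice had 51.7, 52.3, 44.4 and 42.4 CPM, and the 4 HDACi CFC mice had 87.6, 76.8, 83.0 and 81.0 CPM. Every drug-treated mouse lay above every vehicle mouse, on the TMM-scaled values by which overlap between groups is judged here unless CPM is named. The rise was 1.80-fold (log2 0.85, SE 0.12, adjusted p = 7.56e-05). After context alone Jun was 70.0, 50.4, 47.9 and 43.7 CPM with vehicle and 89.0, 92.3, 71.2 and 80.5 CPM with HDACi, again with no overlap although vehicle replicate 1 came within a few CPM of the lowest HDACi mouse. That rise was 1.66-fold (log2 0.73, SE 0.12, adjusted p = 0.000279).

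Fosl2, which encodes the Fos-family protein Fra-2, was the other member that rose in hippocampus. It was at 53.8, 53.3, 61.1 and 51.0 CPM in vehicle CFC mice and at 88.6, 74.4, 89.0 and 83.3 CPM in HDACi CFC mice, which did not overlap. The rise was 1.60-fold (log2 0.68, SE 0.11, adjusted p = 0.000288). After context the values were 78.7, 54.3, 53.3 and 55.9 CPM with vehicle and 71.2, 88.2, 77.4 and 76.1 CPM with HDACi. Vehicle replicate 1 lay among the HDACi mice and the groups overlapped, with a 1.37-fold rise (log2 0.45, SE 0.11, adjusted p = 0.00706). With only replicates 1 and 2 of each group this last call was lost (log2 0.35, adjusted p = 0.254, the highest of 11 alternatives that began at 0.000623).

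Of the 7 members, 2 were thus called after CFC, where 20.8% of all genes tested were called (7.42% higher), and 2 after context, where 19.8% were called (6.55% higher). Groups without overlap, both members after CFC and Jun alone after context, compare with 7.21% and 8.26% of all genes lying higher without overlap. Of the called genes 64.3% and 66.9% were lower; the lower share moved to 76.4% and 81% under scaling to library size alone and to 51% and 48.9% with offsets for GC content and transcript length, and neither Jun nor Fosl2 changed its call or direction under any of these. Without the pair of libraries high in choroid plexus markers Jun still rose after CFC (log2 0.92, adjusted p = 0.00147), and so did Fosl2 (log2 0.78, adjusted p = 0.00151). Of the 8 choroid plexus markers 8 were called higher after CFC and 0 after context. Some other marker lists moved with the drug as well. All 4 markers of oligodendrocyte precursors were called higher in each of the 4 drug comparisons, with summed levels of 156.3 to 183.4 CPM in vehicle and 218.8 to 274.7 CPM in HDACi hippocampus. Of 6 endothelial markers 3 were called higher after CFC and 1 after context (summed 122.7 to 170.5 CPM in vehicle and 147.8 to 186.0 in HDACi). Of 9 hippocampal neuron markers 1 was called higher after CFC and 4 after context (summed 1265 to 1619 CPM in vehicle and 1442 to 1801 in HDACi). No marker of these lists was at 0 in any hippocampus library, and the part of these shifts in the result for Jun and Fosl2 was not tested.

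Jun is a gene of 1 exon on chr4:95049034-95052222 (mm10, minus strand), and 232 of its 3189 exonic bases are shared with exons of the antisense gene Junos. How the authors' counting used strand is not given in the sources used here, so reads from the shared bases may not be told apart. Junos itself was low, 1.06 ± 0.106 CPM in vehicle CFC and 1.58 ± 0.266 CPM in HDACi CFC hippocampus (SD, n = 4), and it was called higher with the drug there after CFC (log2 0.63, SE 0.16, adjusted p = 0.0116) and after context (log2 0.72, SE 0.17, adjusted p = 0.00511). In striatum Junos was not called (adjusted p = 0.582 after CFC and 0.706 after context).

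**Figure D2:**
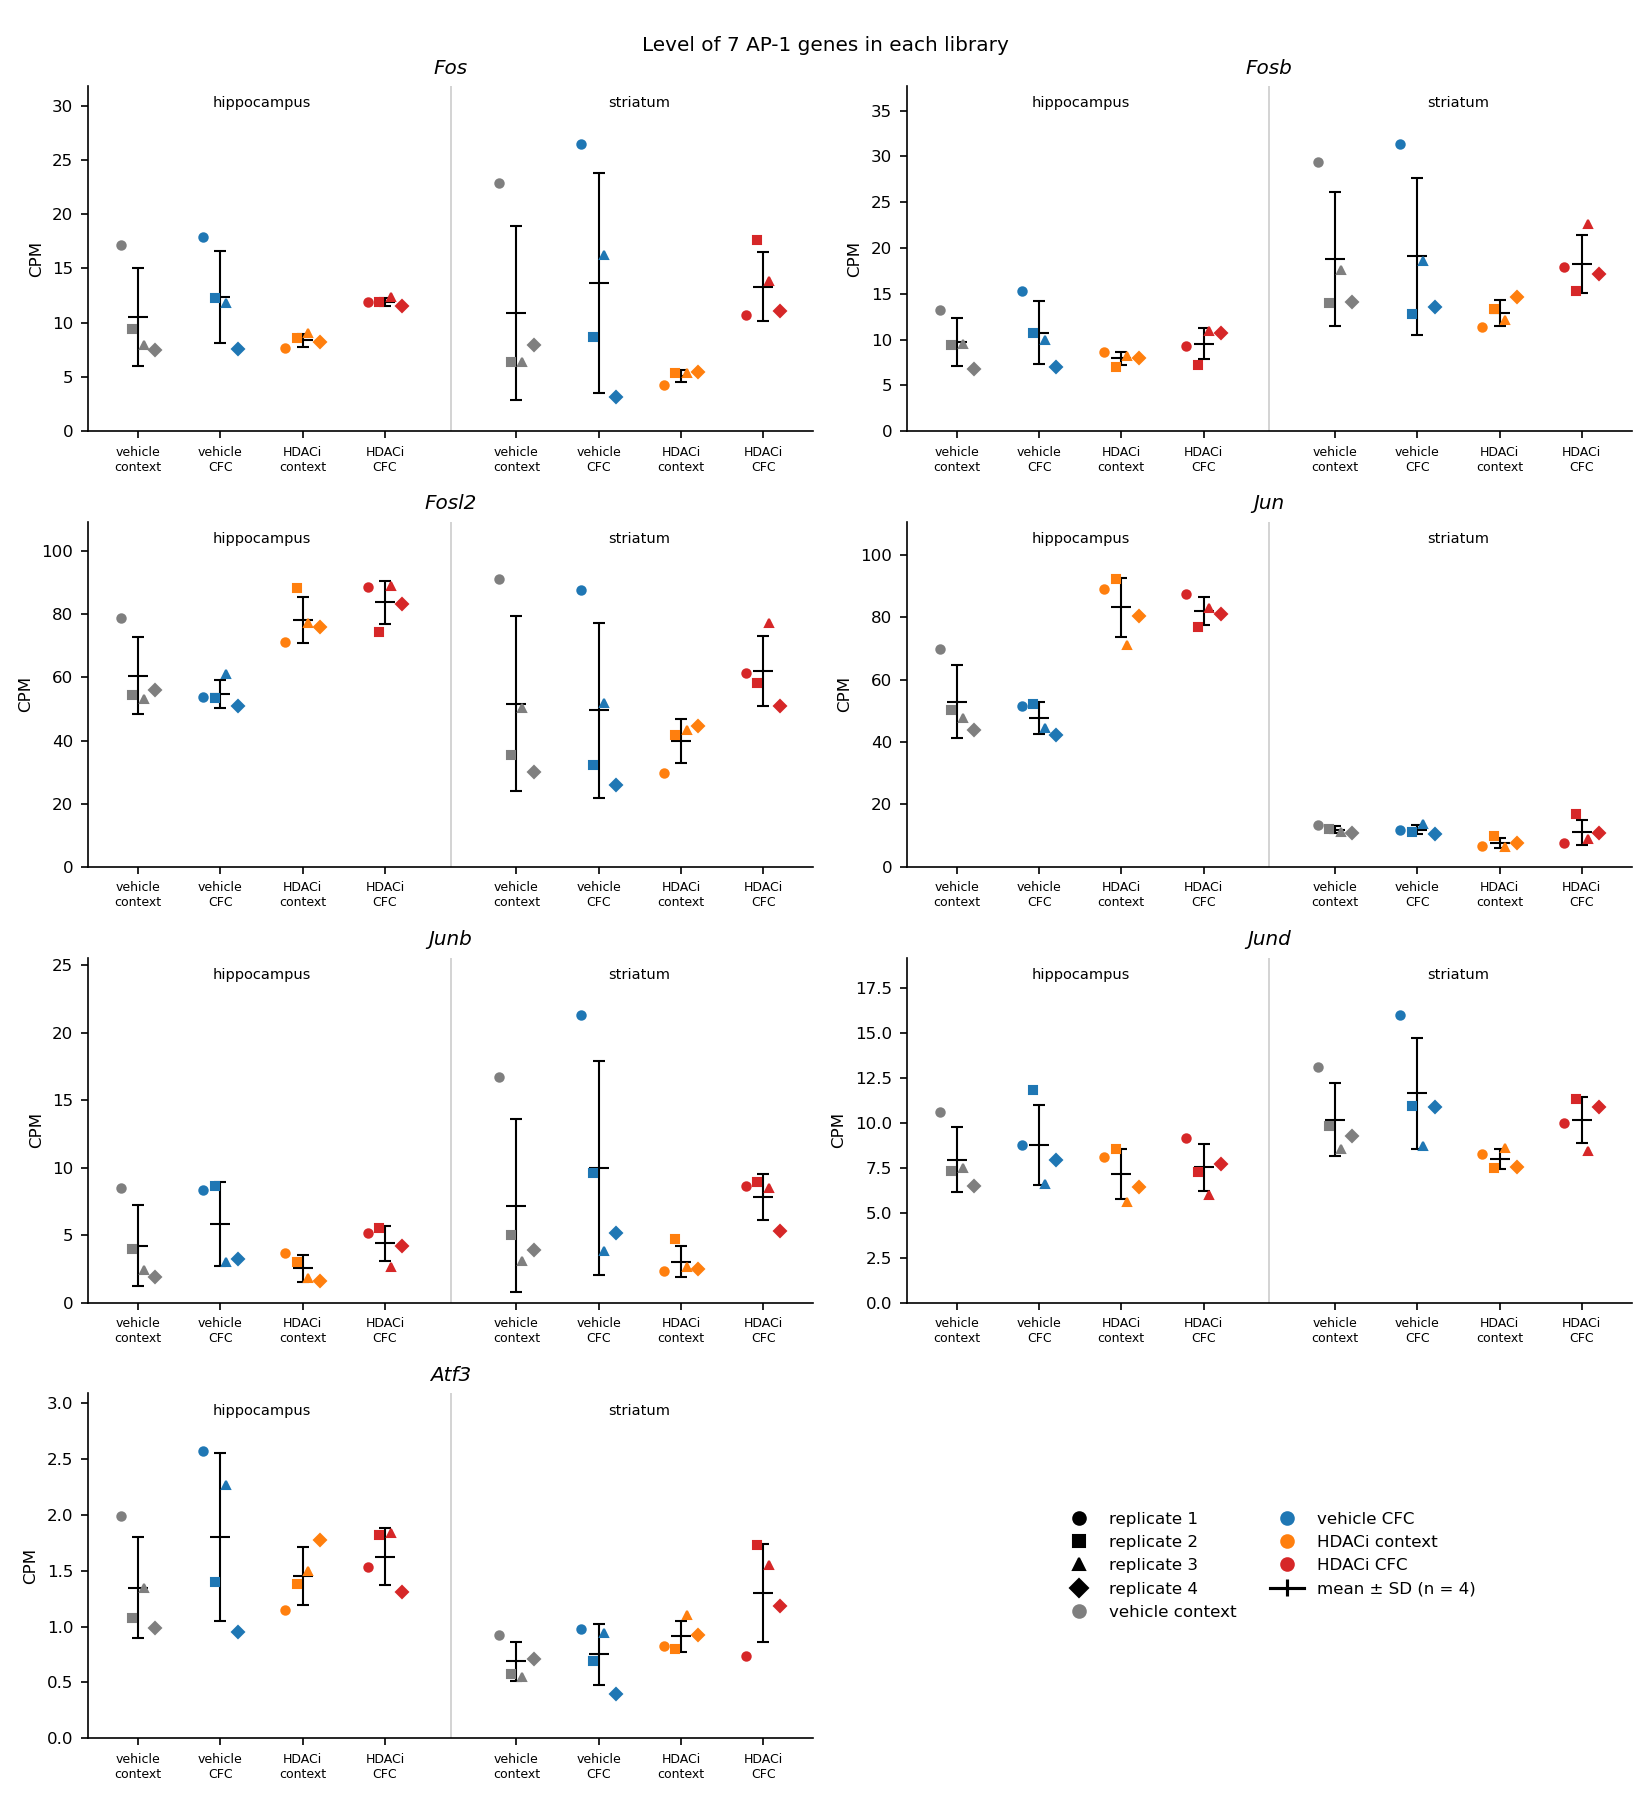
CPM of the 7 AP-1 genes in every library, 1 panel per gene. Colours are the drug and behaviour groups, marker shapes are replicates 1 to 4, and bars are the mean ± SD of 4 mice. In hippocampus the HDACi mice lie at 71.2 to 92.3 CPM for Jun and the vehicle mice at 42.4 to 70.0, and in the vehicle context groups replicate 1 is the highest point for every gene.

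The remaining 5 members did not pass the test in either hippocampal drug comparison. Fos, the reference immediate early gene (chr12:85473890-85477273, plus strand), was at 17.9, 12.3, 11.8 and 7.61 CPM in vehicle CFC mice and at 11.9, 11.9, 12.4 and 11.5 CPM in HDACi CFC mice. The HDACi mice fell inside the vehicle range and the log2 difference was 0.01 (SE 0.24, adjusted p = 0.985). After context the vehicle mice had 17.2, 9.37, 7.93 and 7.48 CPM and the HDACi mice 7.68, 8.57, 9.02 and 8.19 CPM, with a log2 difference of -0.24 (SE 0.24, adjusted p = 0.562). The groups differed in spread more visibly than in level: the SD of log2 CPM was 0.53 and 0.50 in the vehicle context and CFC groups and 0.11 and 0.06 in the HDACi groups, a difference that was not tested.

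Fosb, whose splice form deltaFosB accumulates with repeated stimulation, ran from 6.76 to 15.3 CPM with vehicle and from 6.98 to 10.9 CPM with HDACi in hippocampus (log2 -0.11, SE 0.21, after CFC and -0.20, SE 0.22, after context). Junb, an immediate early gene of the Jun family, ran from 1.90 to 8.66 CPM with vehicle and from 1.60 to 5.54 CPM with HDACi (log2 -0.34, SE 0.44, and -0.66, SE 0.46). Jund, the Jun gene that is least dependent on stimulation, ran from 6.46 to 11.8 and from 5.62 to 9.15 CPM (log2 -0.15, SE 0.19, and -0.07, SE 0.19). For Atf3 the ranges were 0.954 to 2.57 and 1.15 to 1.84 CPM (log2 -0.08, SE 0.28, and 0.18, SE 0.29). All 4 genes overlapped between drug and vehicle, and their adjusted p values were at least 0.370.

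In the striatum the drug left a different picture for the same genes. Jun after context was 13.4, 12.1, 11.1 and 11 CPM with vehicle and 6.54, 9.77, 6.20 and 7.59 CPM with HDACi. The HDACi mice all lay below the vehicle mice, as for Fos among the members and 15.6% of all genes, and Jun fell 1.46-fold (log2 -0.55, SE 0.19, adjusted p = 0.0452). This was 1 of the 7 members, where 24.8% of all genes were called (14.5% lower). The call was lost without any 1 of 7 of the 8 libraries compared, all except HDACi context replicate 2 (adjusted p = 0.0212 to 0.125, log2 -0.69 to -0.47), so it lies at the edge of the threshold. After CFC the vehicle mice had 12.0, 11.1, 13.8 and 10.5 CPM and the HDACi mice 7.64, 16.8, 8.78 and 11 CPM. The groups overlapped, with a log2 difference of -0.02 (SE 0.19, adjusted p = 0.944), and the highest value was in HDACi CFC replicate 2, the library with the fewest medium spiny neuron transcripts of all 16.

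The drug effect on Jun differed between the regions when the difference itself was tested. After context the effect in hippocampus was greater than the striatal one, with a log2 difference of 1.27 (SE 0.23, adjusted p = 0.00431), which made Jun 1 of 119 genes called, or 0.62% of 19198, and the single member called. Leaving out any 1 of the 16 libraries kept the call (adjusted p = 0.00112 to 0.0143), and it was lost with only replicates 1 and 2 of each group (adjusted p = 1.00, log2 1.2). After CFC the difference was 0.87 (SE 0.23, adjusted p = 0.107) and 0 of the 7 members were called, where 0.266% of genes were called. That Jun difference passed without striatum HDACi CFC replicate 2 (log2 1.2, adjusted p = 0.00329) and without the 4 libraries that stand apart (log2 1.2, adjusted p = 0.0204). It also passed with the replicate block (log2 0.91, adjusted p = 0.0318), the term for replicates 1 and 2 against 3 and 4 (adjusted p = 0.0410), DESeq2 (adjusted p = 0.0174) and GC and length offsets (adjusted p = 0.0265), and stayed above the threshold under the other 5 alternatives. For Fosl2 the difference between the regions was 0.69 (SE 0.39, adjusted p = 0.771) after context and 0.27 (SE 0.39, adjusted p = 0.995) after CFC, so its change in hippocampus was not shown to be larger than that in striatum.

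Atf3 was the member called with the drug in striatum after CFC, 1 of 7 where 24.2% of all genes were called (9.57% higher). It was at 0.978, 0.693, 0.940 and 0.394 CPM in vehicle CFC mice and at 0.736, 1.73, 1.55 and 1.19 CPM in HDACi CFC mice. HDACi replicate 1 lay inside the vehicle range, and Atf3 rose 1.82-fold (log2 0.87, SE 0.29, adjusted p = 0.0377). The call was lost without vehicle CFC replicate 2 or 4 or HDACi CFC replicate 2, 3 or 4 (adjusted p = 0.0132 to 0.118, log2 0.64 to 1.05). It was also lost under 6 of 11 alternatives, scaling to library size alone and use of only the 2 groups compared among them (adjusted p = 0.0253 to 0.386). After context the log2 difference was 0.52 (SE 0.29, adjusted p = 0.220). Beside these striatal calls of Jun and Atf3, marker lists also moved with the drug: after CFC and after context, 4 and 4 of 4 oligodendrocyte precursor, 3 and 3 of 6 endothelial, 2 and 3 of 5 astrocyte and 4 and 2 of 8 hippocampal neuron markers were called higher, and none lower. Their summed levels in vehicle and HDACi striatum were 154.0 to 181.1 and 212.8 to 274.8 CPM for the precursors and 149.6 to 183.8 and 170.5 to 218.4 CPM for endothelial cells. They were 3827 to 4644 and 4170 to 5007 CPM for astrocytes and 372.5 to 457.2 and 478.9 to 579.2 CPM for hippocampal neurons. The latter sum holds all 9 hippocampal neuron markers, of which 1 was called higher in striatum than in hippocampus. None of these markers was at 0 in any library, and their part in the calls was not tested.

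Fos in striatum varied most between mice that were not given the drug. Vehicle context mice had 22.9, 6.39, 6.35 and 7.94 CPM, and HDACi context mice 4.26, 5.32, 5.37 and 5.44 CPM. Every HDACi mouse was below every vehicle mouse, but the difference did not pass (log2 -0.98, SE 0.50, adjusted p = 0.172). After CFC the vehicle mice had 26.5, 8.68, 16.3 and 3.12 CPM and the HDACi mice 10.7, 17.6, 13.8 and 11.1 CPM (log2 0.04, SE 0.48, adjusted p = 0.965). Here vehicle mice were both above and below all drug-treated mice.

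Junb after context was at 16.7, 5.02, 3.05 and 3.92 CPM with vehicle and 2.34, 4.74, 2.62 and 2.46 CPM with HDACi (log2 -1.13, SE 0.55, adjusted p = 0.147). Without vehicle replicate 1 the log2 difference was -0.32 for Junb and -0.35 for Fos. Junb (chr8:84974484-84978718, minus strand) shares 173 exonic bases with Prdx2 on the other strand, which was at 116.1 ± 12.6 CPM in vehicle context and 117.3 ± 5.13 CPM in HDACi context striatum (SD, n = 4) and was called in none of the drug or conditioning comparisons. Fosl2 ran from 26.0 to 91.1 CPM with vehicle and from 29.6 to 77.3 CPM with HDACi (log2 0.41, SE 0.35, after CFC and -0.26, SE 0.35, after context). Fosb ran from 12.8 to 31.4 and from 11.4 to 22.7 CPM (log2 0.02, SE 0.27, and -0.43, SE 0.27). Jund ran from 8.54 to 16 and from 7.49 to 11.3 CPM (log2 -0.11, SE 0.16, and -0.24, SE 0.16), and 877 of its 1668 exonic bases are shared with Gm11175 on the other strand, itself at most 0.489 CPM. None of these passed in either striatal drug comparison.

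**Figure D3:**
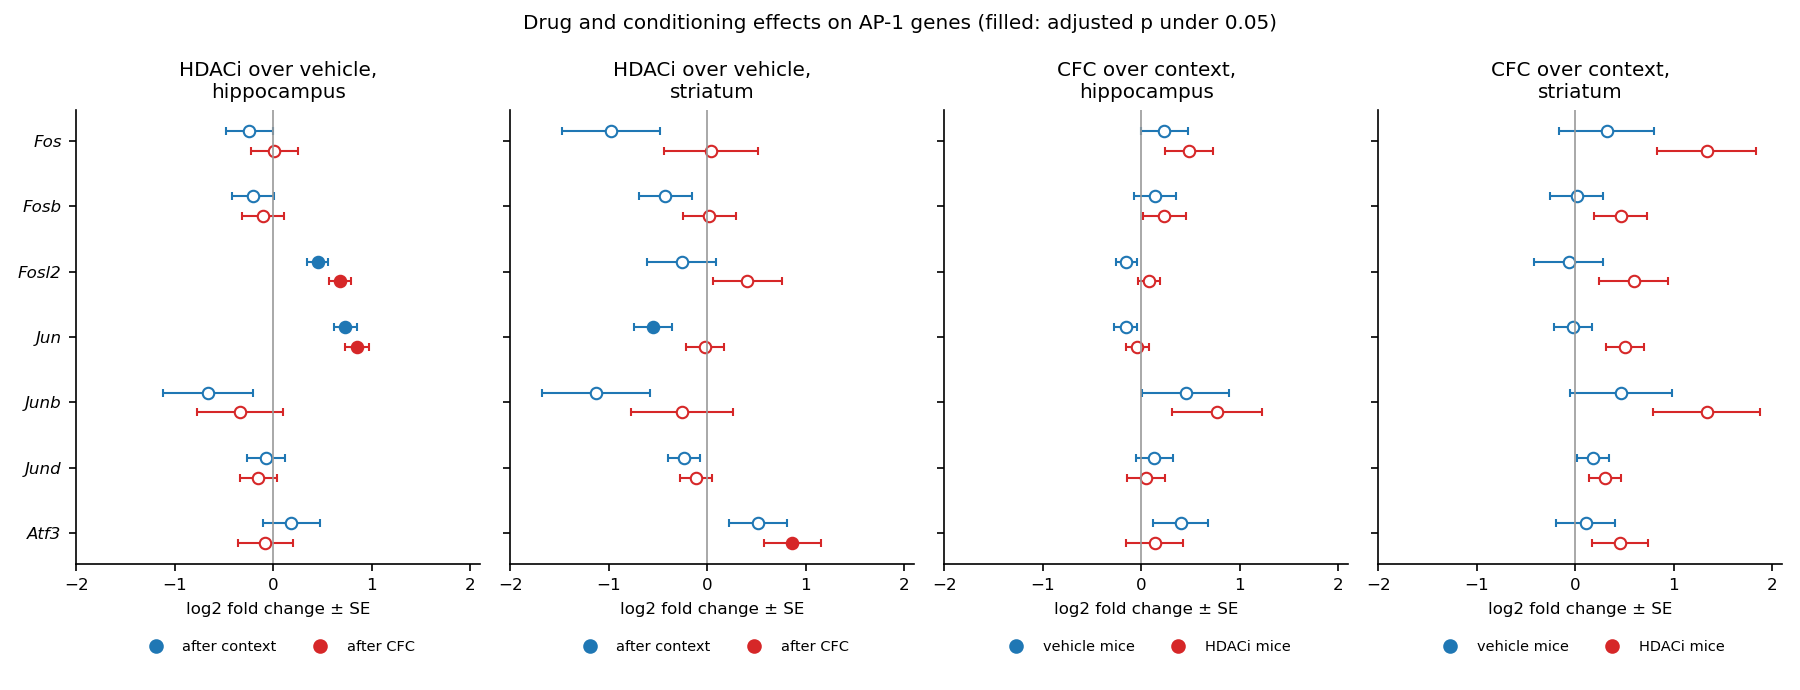
Log2 fold change ± SE of the 7 AP-1 genes for HDACi over vehicle and CFC over context in each region, with filled points where the adjusted p was under 0.05. Jun and Fosl2 are filled to the right of 0 in both hippocampal drug comparisons, Jun is filled at -0.55 and Atf3 at 0.87 in striatum, and no point is filled for conditioning.

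Conditioning, the comparison in which an immediate early response to foot shock would be read, called none of the 7 members in any of its 4 versions with edgeR, and 0% of all genes in each. At an unadjusted p under 0.05 edgeR gave 188 genes in vehicle hippocampus, 775 in HDACi hippocampus, 216 in vehicle striatum and 988 in HDACi striatum. These are of 18261 genes tested in hippocampus and 18256 in striatum, where chance alone would give a share of about 0.05. The 988 held 3 of the 7 members, Fos (unadjusted p = 0.0168), Jun (0.0183) and Junb (0.0267). The other edgeR conditioning comparisons held 0 members at that threshold. DESeq2 gave 1, 0, 0 and 2 genes by adjusted p and 105, 685, 141 and 950 by unadjusted p, and none of the genes it called by adjusted p was a member. Its genes by unadjusted p held 0, 1, 0 and 3 members in the same order. Tissue was taken 1 hour after behaviour in all groups, and the context mice had been in the same chamber.

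In vehicle hippocampus Fos was 17.2, 9.37, 7.93 and 7.48 CPM after context and 17.9, 12.3, 11.8 and 7.61 CPM after CFC, which overlapped almost entirely (log2 0.24, SE 0.24, adjusted p = 1.00). The other 6 members had log2 differences from -0.16 (Jun) to 0.45 (Junb) there. In HDACi hippocampus the Fos values were 7.68 to 9.02 CPM after context and 11.5 to 12.4 CPM after CFC. Every CFC mouse was above every context mouse, an order found for 0.723% of all genes, with a log2 difference of 0.49 (SE 0.24, edgeR's adjusted p = 1.00). Without the pair of libraries high in choroid plexus markers the log2 difference was 0.53.

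The largest conditioning differences were in HDACi striatum. Fos was 4.26, 5.32, 5.37 and 5.44 CPM after context and 10.7, 17.6, 13.8 and 11.1 CPM after CFC, a separation without overlap of 2.52-fold (log2 1.33, SE 0.50, edgeR's adjusted p = 0.839). Junb was 2.34, 4.74, 2.62 and 2.46 CPM after context and 8.62, 8.95, 8.53 and 5.32 CPM after CFC, also without overlap (log2 1.33, SE 0.55, edgeR's adjusted p = 0.839). Fosl2 was 29.6, 41.8, 43.5 and 44.5 CPM against 61.4, 58.1, 77.3 and 50.9 CPM, again without overlap (log2 0.59, SE 0.35, adjusted p = 0.839). These are 3 of the 7 members with all TMM-scaled CFC values above all context values, where 1.22% of all genes had that order. The Fosb groups did not overlap in CPM (11.4 to 14.7 after context, 15.3 to 22.7 after CFC) and did so after TMM scaling. Fosb (0.46), Atf3 (0.45), Jun (0.50) and Jund (0.30) also had positive log2 differences, and the median over the 7 members was 0.50 against 0.00387 over all genes tested.

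None of these differences passed the adjusted test, and markers of other regions varied between the same libraries. HDACi CFC replicate 2, highest of its group for Fos, Jun, Junb, Jund and Atf3, had the lowest medium spiny average of all 16 libraries (8.63 log2 CPM) and the highest thalamic average (4.21, against at most 3.49 elsewhere in striatum). The median log2 difference in this comparison was 0.94 over the 6 neocortical markers, larger than the 0.50 over the AP-1 members, and -0.26 over the medium spiny, 0.10 over the thalamic and 0.24 over the oligodendrocyte markers. The neocortical markers summed to 119.8 to 143.2 CPM after context and 115.6 to 176.7 CPM after CFC with HDACi, and the 5 thalamic markers to 91.0 to 104.2 and 92.1 to 172.6 CPM. No marker of these lists was called in the comparison or at 0 in any library, and their part in the differences was not tested. Without the libraries that stand apart the log2 difference was 1.19 for Fos, 1.29 for Junb and 0.26 for Jun. In vehicle striatum the same comparison gave log2 differences of 0.32 for Fos (SE 0.48), 0.47 for Junb (SE 0.52) and -0.02 for Jun (SE 0.19), and the vehicle groups overlapped for every member.

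Whether the drug effect differed between CFC and context was tested as an interaction in each region, and 0 of 7 members were called, as were 0% of all genes by edgeR (390 genes in hippocampus and 380 in striatum at an unadjusted p under 0.05). DESeq2 called 1 gene in hippocampus and 0 in striatum by adjusted p, and 338 and 325 by unadjusted p. In striatum the interaction was 1.01 for Fos (SE 0.69), 0.87 for Junb (SE 0.75), 0.66 for Fosl2 (SE 0.50) and 0.53 for Jun (SE 0.27), all with adjusted p = 1.00. These values turned on single mice: without vehicle context replicate 1 they were 0.37 for Fos, 0.04 for Junb and 0.25 for Fosl2, and without vehicle CFC replicate 1 they were 1.56, 1.56 and 1.09. Without HDACi CFC replicate 2 the Jun interaction was 0.28. In hippocampus the 7 values lay between -0.27 (Atf3) and 0.32 (Junb). The striatal values use the same 4 groups as the separate drug and conditioning comparisons, so they are not further evidence of them.

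The order of the 8 groups differed by gene. Fos had its highest mean in striatum vehicle CFC (13.6 ± 10.1 CPM) and its lowest in striatum HDACi context (5.10 ± 0.561 CPM, SD, n = 4), and of the 7 steps between neighbouring groups only the last, from hippocampus HDACi context (8.37 ± 0.567 CPM) to striatum HDACi context, had no overlap of CPM. Jun ran from 83.3 ± 9.43 CPM in hippocampus HDACi context to 7.52 ± 1.61 CPM in striatum HDACi context, so the drug-treated context mice held both ends of its order. Fosl2 was highest in hippocampus HDACi CFC (83.8 ± 6.77 CPM) and lowest in striatum HDACi context (39.8 ± 6.90 CPM). Fosb and Jund were highest in striatum vehicle CFC (19.1 ± 8.60 and 11.6 ± 3.08 CPM) and lowest in hippocampus HDACi context (7.97 ± 0.720 and 7.18 ± 1.39 CPM), as was Junb (9.98 ± 7.96 and 2.53 ± 0.974 CPM). Atf3 was highest in hippocampus vehicle CFC (1.80 ± 0.751 CPM) and lowest in striatum vehicle context (0.689 ± 0.172 CPM).

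Much of the spread of the immediate early members lay between mice of 1 group, and single mice were high for several members together. Vehicle context replicate 1 was the highest of its group for 7 of 7 members in hippocampus and again in striatum. Striatum vehicle CFC replicate 1 was highest for 6 of 7, all except Jun, and striatum HDACi CFC replicate 2 for 5 of 7. Within the groups, after each group's mean of log2 CPM was subtracted, Fos varied with Atf3 in striatum (Pearson r = 0.83, Spearman rho = 0.88, n = 16 mice, permutation p = 9e-05, adjusted p = 0.00108 over 12 relations) and with Fosb in hippocampus (r = 0.81, rho = 0.58, permutation p = 0.0113, adjusted p = 0.0339).

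**Figure D4:**
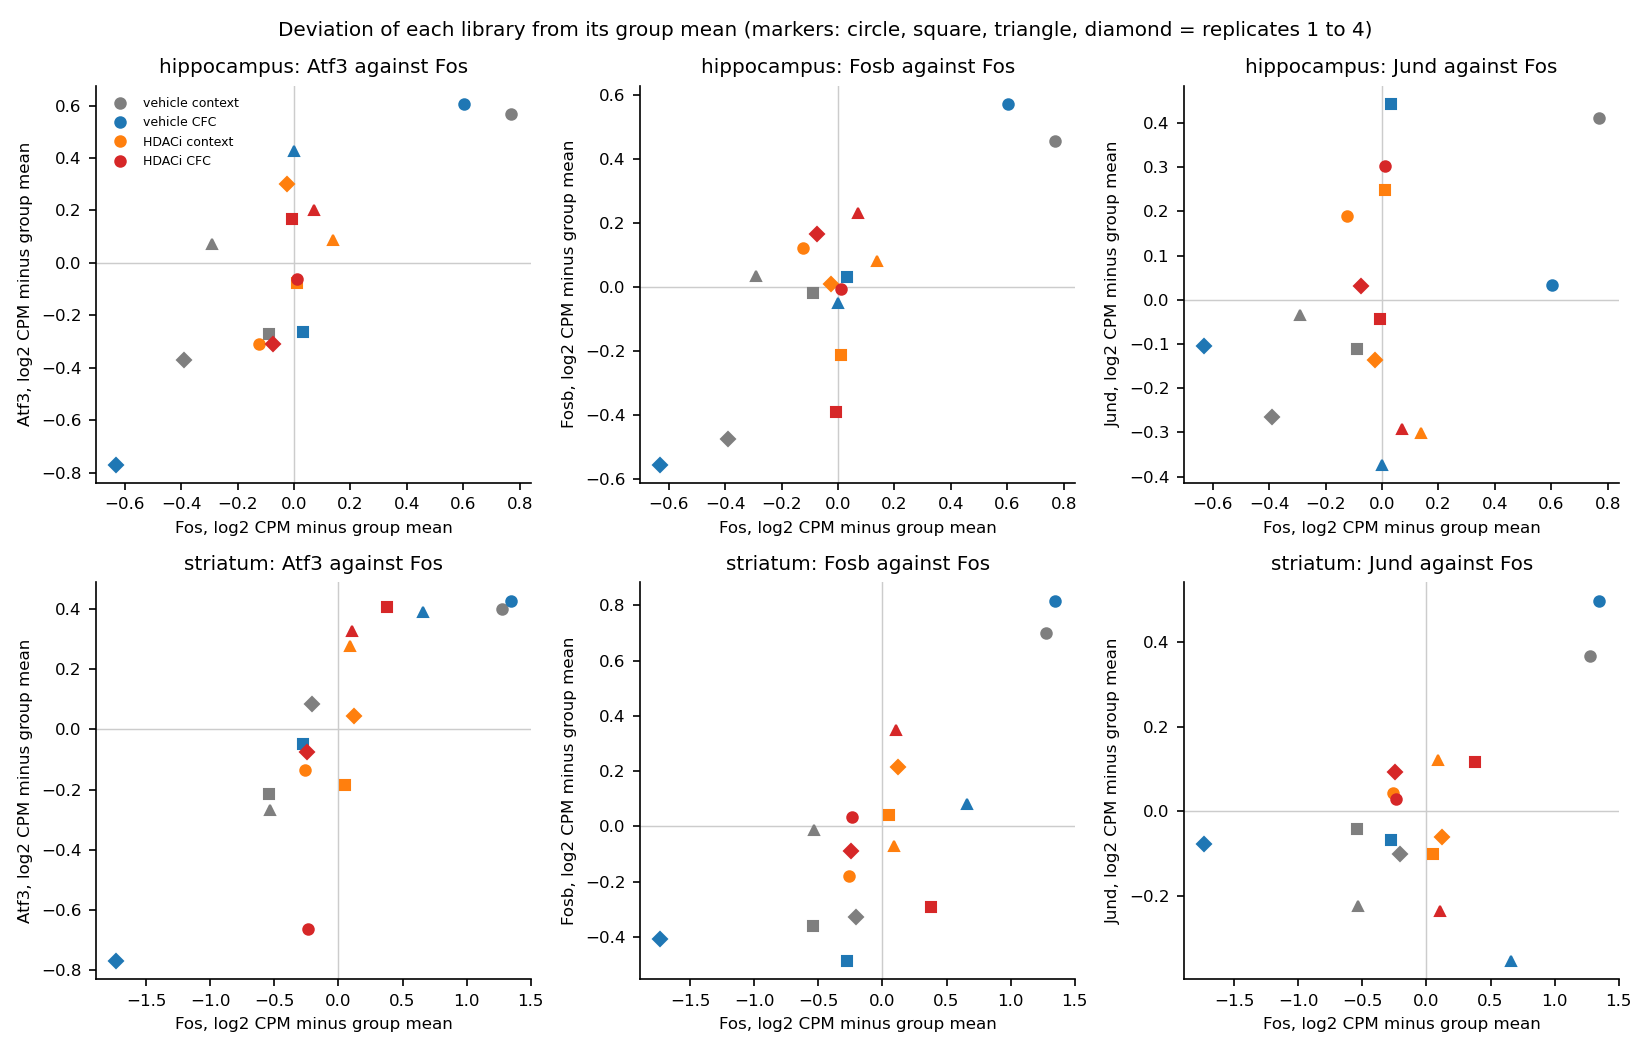
Deviation of each library from its group mean, in log2 CPM, for Fos on the horizontal axis and Atf3, Fosb or Jund on the vertical axis, 16 mice per panel. Colours are the 4 groups of a region and marker shapes the replicates. Of the 6 panels drawn, r is highest for Atf3 in striatum (0.83) and lowest for Jund in hippocampus (0.36); Fosl2, not drawn, had r = 0.85 in striatum.

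The striatal relation of Fos to Atf3 was r = 0.71 (permutation p = 0.00125) without the 2 mice farthest from the median of Fos, vehicle CFC replicates 1 and 4. Fos and Fosl2 in striatum gave r = 0.85 and rho = 0.79 (permutation p = 0.00367, adjusted p = 0.016), and r = 0.79 without those 2 mice (permutation p = 0.0368, adjusted p = 0.0632). Fos and Fosb in striatum gave r = 0.77 and rho = 0.76 (permutation p = 0.0193, adjusted p = 0.0386), and r = 0.76 without them (permutation p = 0.0659). Fos and Jun in striatum were weaker, r = 0.41 and rho = 0.46 (permutation p = 0.0163, adjusted p = 0.0386), and r = 0.46 without them. With 1 library left out at a time, the striatal call was lost in 5 of 16 cases for Jun (r = 0.359 to 0.468) and in 5 for Fosb.

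In hippocampus the 2 mice farthest from the median of Fos were vehicle context replicate 1 and vehicle CFC replicate 4. Fos and Atf3 gave r = 0.81 and rho = 0.72 (permutation p = 0.00401, adjusted p = 0.016), and r = 0.51 without them (permutation p = 0.285). For Fos and Fosb r was 0.61 without them (permutation p = 0.0811). Fos and Jun gave r = 0.74 and rho = 0.61 (permutation p = 0.0253, adjusted p = 0.0434), and r = 0.21 without them (permutation p = 0.601). None of these hippocampal relations passed without the 2 mice, with r lower in each. The 2 mice were chosen by Fos itself, which narrows its range, so this cannot decide whether the relations rest on them. With 1 library left out at a time, r was 0.706 to 0.858 for Atf3, 0.731 to 0.880 for Fosb and 0.468 to 0.846 for Jun. The calls were lost in 1, 1 and 7 of 16 such cases. In striatum the relations of Fos with Fosb and Fosl2 no longer passed after adjustment over the 14 remaining mice, where r was 0.76 and 0.79. The relations of Fos with Fosl2 (r = 0.63), Junb (0.67) and Jund (0.36) in hippocampus, and with Junb (0.64) and Jund (0.51) in striatum, did not pass after adjustment. Within replicates 1 and 2 or 3 and 4 alone, sets of 8 libraries that follow the replicate numbers, r for Fos and Atf3 was 0.96 and 0.89 in hippocampus and 0.76 and 0.95 in striatum, but permutation within groups of 2 cannot reach 0.05 there. In striatum the same sets gave 0.90 and 0.65 for Fosb and 0.94 and 0.71 for Fosl2, and in hippocampus 0.74 and 0.80 for Fosb and 0.78 and 0.27 for Jun.

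The genes whose levels followed each member most closely over the 16 libraries of a region, drug and behaviour groups included, are given as descriptions without a test, among about 12200 genes compared. Fos was nearest to Fosb (r = 0.81), Ccnk and Phf21b in hippocampus and to Mfhas1 (r = 0.89), Arc and Tob1 in striatum. Fosb was nearest to Il17d (r = 0.83), Fos and Gpr3 in hippocampus and to Nr4a3 (r = 0.97), Fosl2 and Egr4 in striatum, and Atf3 to Egr1 (r = 0.84), Tm6sf2 and Npas4 in hippocampus and to Nfil3 (r = 0.87), Btg2 and Elk3 in striatum. Arc, Nr4a3, Egr1, Egr4 and Npas4 are themselves activity-dependent genes. Jun was nearest to Fam222b (r = 0.97), Synpo and Zfp516 in hippocampus, where the drug separates its libraries, and to Nck2 (r = 0.89), Trim3 and Dyrk3 in striatum. Given again as hippocampus and then striatum, Fosl2 was nearest to Zfp36l1 (r = 0.94), Dact1 and Ppp1r3c, and to Rnd3 (r = 0.91), Nr4a3 and Nptx2. Junb was nearest to Map3k11 (r = 0.95), Sik1 and Tmem208, and to Rpp25l (r = 0.94), Snrpb and Polr2l. Jund was nearest to Dvl1 (r = 0.96), Plpp7 and Hras, and to Ndufb11 (r = 0.91), Fbl and Guk1. All points of a pair share a library and its depth.

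The genes around AP-1 were taken from lists of kinases, promoter factors, turnover regulators, partners and targets. Their counts are to be read against the share of all genes called with the drug, which was 20.8% after CFC and 19.8% after context in hippocampus and 24.2% and 24.8% in striatum. Of 18 factors and coactivators that act at AP-1 gene promoters, 2 were higher and 7 lower with the drug in hippocampus after CFC, 3 and 7 after context, and 3 and 5 in striatum after either behaviour, shares above those 19.8% to 24.8% of all genes, with list medians from -0.01 to 0.08 where the medians of all genes were 0.01 to 0.03. The genes with the smallest adjusted p of the list were Ep300, the p300 acetyltransferase, which fell 1.52-fold after CFC in hippocampus (90.1 to 56.8 CPM, log2 -0.60, SE 0.07) and 1.46-fold after context in striatum (log2 -0.55, SE 0.07), Elk4, a ternary complex factor of SRF (log2 -0.35 and -0.74 in the same comparisons), and Mrtfb, a coactivator of SRF, which rose (log2 0.36 and 0.69). All 3 were called in all 4 drug comparisons.

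Of 19 kinases upstream of AP-1, fewer were called than that share would give: 2 were higher and 0 lower in hippocampus after CFC, 1 and 1 after context, and 0 and 2 in striatum after either behaviour, against 20.8%, 19.8%, 24.2% and 24.8% of all genes, with list medians from 0.05 to 0.09. Mapk7 (ERK5) fell 2.19-fold after CFC and 2.33-fold after context in striatum (log2 -1.13, SE 0.20, adjusted p = 0.000609, and -1.22, SE 0.20, adjusted p = 0.000328) and was not called in hippocampus (log2 -0.43 and -0.44). Map2k7, which activates JNK, fell in striatum (log2 -0.29 and -0.28), and Mapk14, the p38 alpha kinase, rose slightly in hippocampus (log2 0.15 and 0.19). Tests of the region difference in drug effect called 0 of the 19 kinases after either behaviour. These changes were therefore not shown to differ between the regions.

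Of 12 regulators of Fos and Jun turnover, 3 were higher and 2 lower in hippocampus and 4 higher and 2 lower in striatum after either behaviour, where 19.8% to 24.8% of all genes were called, with list medians from -0.06 to 0.01. Zfp36l2 and Zfp36l1 encode proteins that bind AU-rich elements of short-lived transcripts, and Fbxw7 is the ubiquitin ligase subunit that targets Jun. Zfp36l2 rose 1.76-fold after CFC in hippocampus (10.8 to 18.2 CPM, log2 0.82, SE 0.11) and 1.92-fold in striatum (log2 0.94, SE 0.13), Zfp36l1 rose by 0.74 and 0.88 on the log2 scale, and Fbxw7 by 0.56 and 0.62. All 3 were called after context as well, in both regions.

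Of the 17 other AP-1 and bZIP partners listed, 13 passed the filter in hippocampus (2 higher, 1 lower after either behaviour) and 12 in striatum (1 higher, 2 lower after either behaviour), counts near the 19.8% to 24.8% of all genes called. Maf rose and Mafk fell in all 4 drug comparisons (Maf by 0.59, Mafk at -0.71 on the log2 scale after CFC in hippocampus), and Creb5 rose in hippocampus (0.39 after CFC, 0.60 after context). Fosl1, the Fos-family gene that completes the set, had at most 5 counts in a library and was not tested. Of 17 genes described as AP-1 targets 15 were tested, with 2 higher and 1 lower in hippocampus after either behaviour, and 2 and 3 higher and 0 lower in striatum after CFC and after context, again near or below the 19.8% to 24.8% of all genes called. Plaur, the urokinase receptor gene, rose in all 4 comparisons (log2 1.01 to 1.17) at group means of 0.294 to 1.18 CPM. Bcl2l11, which encodes a protein that promotes cell death, fell in hippocampus (log2 -0.50 and -0.35) and was not called in striatum. Conditioning called 0 genes of these lists in any of the 4 comparisons. The region difference in drug effect also called 0 genes of these lists, after CFC and after context. Changes called in only 1 region, such as those of Creb5 and Bcl2l11, were therefore not shown to differ between the regions.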

How the data were processed

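Polyadenylated RNA was sequenced as stranded 100-base paired-end libraries, per the labels' protocols. The deposited values are raw counts per gene, with 1 column per library. Per the submitters' processing notes, the tools were STAR 2.6, bcl2fastq 2.20.0 and DESeq2 and the build was mm10. Which program counted reads, and whether by strand, is not given in the sources used here. Symbols came from GENCODE (54079 of 54146 identifiers matched). CPM used library totals. Main tests were edgeR 4.0.16 quasi-likelihood fits (R 4.3.3) with TMM scaling and a low-count filter, 1 fit of 4 groups per region and 1 of all 8 groups between regions, with Benjamini-Hochberg adjustment over all genes tested and a threshold of 0.05. DESeq2 1.42.0 was an alternative. The fits were tested on simulated data: of 50 genes changed 1.5-fold, 58% were called for the drug in hippocampus after CFC, 30% for the hippocampal interaction and 36% for the region difference after context, and of 50 changed 1.25-fold 10%, 0% and 2%. The changed genes were drawn at random from those with a log2 mean CPM of at least 1, a level Atf3 lay below. For the drug in striatum after context the rates were 78% at 1.5-fold and 12% at 1.25-fold. Simulated counts were drawn independently at each gene's own spread, without replicate structure, so these rates are not those of any single member. Each simulation changed 50 genes at each of these folds and 100 genes 2-fold, and left all others unchanged. The data held 3797 called genes for the drug in hippocampus after CFC and 0 for the interaction. The adjusted threshold therefore fell elsewhere, and the rates do not carry over to the data. Correlations used 100000 permutations within groups.

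The members and lists were chosen with earlier results of these data known. All 7 members are named, with the 3 genes of smallest adjusted p in each list (1 of them is not reported here) and the 3 genes most alike each member. Each library is 1 region of 1 mouse. No 2 libraries of a group were copies of each other by a chi-square comparison of counts. Replicate numbers are shared between groups, but the labels tie them to no batch or litter. Every same-numbered pair correlated above 0.1 in 4 of 8 comparisons within regions. Libraries also tended to split into replicates 1 and 2 against 3 and 4. With group means removed, hippocampus vehicle context replicate 1 had r = 0.68 with vehicle CFC replicate 2 and -0.76 with HDACi context replicate 3. Not every pair followed the split, r being 0.28 for the same library with HDACi CFC replicate 4. The main fits and the permutations held no term for the split.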

Additional observations from a re-analysis of the deposited data

Results flagged for a closer look

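Of 56 sets of 4 mice (7 genes in 8 groups), 6 held a mouse whose gap to its nearest neighbour was above Dixon's 95% critical share of the range of the set, and chance alone flags about 1 in 20. In striatum vehicle context, replicate 1 was far above the rest for Fos (22.9 CPM) and Junb (16.7 CPM). In hippocampus vehicle context, replicate 1 was far above the rest for Fosl2 (78.7 CPM). In striatum HDACi context, replicate 1 was below the rest for Fos (4.26 CPM, against 5.32 to 5.44 in the others) and replicate 2 above for Junb (4.74 CPM, against at most 2.62). The Fos gap is small in CPM and large only beside the close agreement of the other mice. In striatum HDACi CFC, replicate 4 was far below the rest for Junb (5.32 CPM). Without striatum vehicle context replicate 1 the drug difference of Fos after context was -0.35 on the log2 scale (adjusted p = 0.641 by edgeR), against -0.98 with it.

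The drug effect on Jun after context differed between hippocampus and striatum by 1.27 on the log2 scale in a test of the difference itself (SE 0.23, adjusted p = 0.00431 by edgeR).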

How the results depend on the processing

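Under the alternatives other than leaving out single libraries, 947 values of single members kept their side of the threshold. Another 13 lost the call, 6 gained it and 0 called values reversed. Leaving out single libraries kept 936 on their side, lost 13 calls and gained 3. The values kept include uncalled ones whose direction changed, such as Fos for the drug in striatum after CFC. Members called fell to 1 for the drug in hippocampus after context and in the region comparison of vehicle context mice, and to 0 for the region difference after context, with only replicates 1 and 2. For the drug in striatum they fell to 0 after CFC under scaling to library size, no filter, only replicates 1 and 2, only replicates 3 and 4, without the libraries that stand apart and with only the 2 groups compared, and to 0 after context with either pair of replicates. For the region difference after CFC they rose to 1, Jun, with DESeq2, the replicate block, the term for replicates 1 and 2 against 3 and 4, the GC and length offsets, and without the libraries that stand apart. The replicate block changed no other count of members called, and its region differences called 130 genes after CFC and 197 after context, against 51 and 119 without it. Leaving out 1 library gave 0 to 1 member for the drug in striatum after CFC and after context and for the region difference after CFC, and 3 to 4 between regions. Between regions Atf3 was also lost with only replicates 3 and 4, and Jund gained with the offsets.

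The correlations of Fos varied more. With only replicates 1 and 2, with only 3 and 4, and without the 2 farthest libraries, r in hippocampus was 0.738, 0.799 and 0.613 for Fosb, 0.776, 0.272 and 0.213 for Jun and 0.957, 0.893 and 0.509 for Atf3, and in striatum 0.895, 0.646 and 0.755 for Fosb and 0.936, 0.708 and 0.786 for Fosl2. With either pair of replicates it was 0.426 and 0.644 for Jun and 0.755 and 0.954 for Atf3 in striatum. It reversed without the farthest libraries for Fosl2 (-0.0328) and Jund (-0.0997) in hippocampus, and with only replicates 3 and 4 for Junb (-0.173) and Jund (-0.642) in hippocampus and Junb (-0.275) and Jund (-0.632) in striatum. Leaving out 1 library, r in hippocampus was 0.731 to 0.880 for Fosb, 0.221 to 0.771 for Fosl2, 0.468 to 0.846 for Jun, 0.466 to 0.737 for Junb, 0.0479 to 0.436 for Jund and 0.706 to 0.858 for Atf3, and in striatum 0.657 to 0.844, 0.781 to 0.888, 0.359 to 0.468, 0.474 to 0.870, 0.213 to 0.768 and 0.702 to 0.921 in the same order. The cause of these changes was not tested.

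All genes called fell with only replicates 1 and 2, and with only 3 and 4, from 3797 to 1642 and 1555 (drug, hippocampus, CFC), 3612 to 1497 and 1625 (context), 4416 to 1401 and 2329 (striatum, CFC) and 4524 to 1520 and 2146 (context), fewer samples being tested. Without the libraries that stand apart the first was 2358, and with GC and length offsets the second was 5779. The region differences ran from 0 to 171 genes after CFC and from 0 to 271 after context over these alternatives. Of the genes called in striatum 60.4% after CFC and 58.5% after context were lower, and these shares were 76.5% and 78.6% under scaling to library size and 52.5% and 49.1% with the offsets. Atf3 had the fewest counts of the members, 12 to 85 per library.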
